A study of Mus musculus with 6 samples.

Results

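The genes described here are the matrix metalloproteinases (Mmp), their tissue inhibitors (Timp), the membrane proteases of the Adam family and the secreted proteases of the Adamts family in the lungs of leptin-deficient mice. They were chosen by name: every probe set with a single annotated symbol that begins with Mmp, Timp, Adam or Adamts followed by a digit was taken. This gave 83 probe sets of 54 genes, out of 20380 probe sets of 12393 genes with a single symbol. They comprise 18 Mmp, 4 Timp, 25 Adam and 7 Adamts genes.

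The RNA came from the lungs of female ob/ob mice of strain B6.V-Lepob/J, aged 1 month, and was hybridised to Affymetrix Mouse 430A arrays. All animals, the controls included, are homozygous for ob and so make no functional leptin of their own. One group had been given leptin (3 arrays) and the other saline (3 arrays), and each label names 1 animal and 1 lung sample. Its dose, route and duration are not known here. The series compares lung gene expression with and without replacement of the hormone. These are whole lungs, so fewer cells of a type and less RNA per cell cannot be told apart.

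Saline replicate 1 was kept apart, because its log2 values correlated at 0.438 to 0.447 with the other 5 arrays, whereas those correlated with each other at 0.973 to 0.978 (Pearson's r across probe sets, as a description). Uty, a Y-linked gene, read 1108.1 and 301.9 on saline replicate 1 for its 2 probe sets, against 12.7 to 67.3 and 20.9 to 72.5 on the other arrays, although every animal is labelled female. Xist, transcribed from the inactive X, read 7896 against 2697 to 3646 for 1 of its 3 probe sets and 578 against 1055 to 1553 for another. The 10th percentile of intensity was 57.1 on saline replicate 1, against 16.4 to 19.3 on the other arrays. Its spiked controls read 21.5 times the median of the other arrays, as a median over these controls. What set this array apart was not tested. The comparison led with is therefore 3 leptin arrays against saline replicates 2 and 3, and the comparison of all 6 arrays stands beside it. All 6 alveolar type II markers with a probe set were above the limit for dim probe sets. This limit was taken over the 5 arrays without saline replicate 1, and most probe sets pass it. It is thus a weak check of the tissue label, and none for saline replicate 1. The summed intensity of the 6 markers was 12026.2 on saline replicate 1, against 85411.6 to 98787.4 on the other arrays. The tissue label of saline replicate 1 was not tested. The depth of an array experiment has no count behind it, and the number of arrays limits the precision.

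Matrix metalloproteinases are zinc-dependent enzymes, secreted or membrane-bound, that are made as inactive proenzymes and together cleave most components of the extracellular matrix. TIMP proteins bind the active site and block them, and TIMP3 also inhibits several ADAM and ADAMTS proteases. ADAM proteases shed the outer parts of membrane proteins such as cytokine and growth factor precursors, while ADAMTS proteases act mainly on proteoglycans, procollagens and other secreted proteins. In the lung these enzymes are known for their part in alveolar septation and repair, and elastin-degrading members for their part in emphysema.

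A block of neighbouring Mmp genes lies on mouse chromosome 9: RefSeq lists 10 there with 0 other protein-coding genes between the first and the last, and 9 of them are on the array. The 250 bases before the start of transcription are shown for 4 of them and, for contrast, for the inhibitors Timp2 and Timp3 (RefSeq, build GRCm38.p6, written 5′ to 3′ on the gene's strand). They are printed because the block differs from the other members both in these letters and in how many of its genes were above the limit for dim probe sets. Capitals mark the AP-1 motif (TGAGTCA, or TGACTCA on the other strand) and the TATA motif (TATAAA, or TTTATA on the other strand).
Mmp3, chr9:7445572-7445821, plus strand: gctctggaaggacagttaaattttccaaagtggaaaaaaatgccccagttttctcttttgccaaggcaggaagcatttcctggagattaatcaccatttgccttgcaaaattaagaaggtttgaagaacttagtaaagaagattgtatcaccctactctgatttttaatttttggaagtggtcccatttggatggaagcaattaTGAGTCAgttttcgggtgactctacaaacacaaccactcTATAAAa
Mmp10, chr9:7502092-7502341, plus strand: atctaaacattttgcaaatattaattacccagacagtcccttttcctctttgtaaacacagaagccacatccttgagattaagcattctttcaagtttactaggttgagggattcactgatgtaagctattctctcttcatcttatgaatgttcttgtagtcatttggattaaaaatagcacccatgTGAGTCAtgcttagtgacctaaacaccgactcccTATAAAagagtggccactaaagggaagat
Mmp13, chr9:7272264-7272513, plus strand: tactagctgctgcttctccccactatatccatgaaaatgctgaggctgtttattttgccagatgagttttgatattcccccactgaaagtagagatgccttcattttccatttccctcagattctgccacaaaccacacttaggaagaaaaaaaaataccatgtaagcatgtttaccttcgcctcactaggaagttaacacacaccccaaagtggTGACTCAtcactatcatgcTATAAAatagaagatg
Mmp8, chr9:7558179-7558428, plus strand: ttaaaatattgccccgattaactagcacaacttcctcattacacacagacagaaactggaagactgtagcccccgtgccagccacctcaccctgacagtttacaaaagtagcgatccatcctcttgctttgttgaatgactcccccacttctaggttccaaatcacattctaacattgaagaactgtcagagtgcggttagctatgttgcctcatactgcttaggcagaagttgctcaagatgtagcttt
Timp2, chr11:118355412-118355661, minus strand: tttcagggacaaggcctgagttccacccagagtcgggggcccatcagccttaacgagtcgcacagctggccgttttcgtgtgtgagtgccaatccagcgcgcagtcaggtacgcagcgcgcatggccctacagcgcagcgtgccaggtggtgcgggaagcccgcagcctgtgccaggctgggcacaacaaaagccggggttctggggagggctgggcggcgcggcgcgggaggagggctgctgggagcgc
Timp3, chr10:86300162-86300411, plus strand: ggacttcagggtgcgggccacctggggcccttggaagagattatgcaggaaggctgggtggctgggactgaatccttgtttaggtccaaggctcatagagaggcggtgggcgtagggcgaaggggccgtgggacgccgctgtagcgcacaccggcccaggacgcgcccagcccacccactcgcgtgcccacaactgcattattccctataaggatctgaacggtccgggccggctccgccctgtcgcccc
Of the 54 member genes 30 had a window in the RefSeq table. The AP-1 motif, the site of Fos and Jun dimers, was found before 7 of the 9 genes of the block, and a TATA motif before 7, with both before 6. Mmp12 and Mmp7 have more than 1 window each, of which 1 held the AP-1 motif, so by window each motif was found in 7 of 11. Over all 32851 windows of this length in the table, 4.46% held the AP-1 motif and 12.4% the TATA motif, and both motifs do not overlap. In Mmp3 the AP-1 motif began 46 bases before the start, in Mmp10 63 and in Mmp13 35 bases before it, each time upstream of the TATA motif. Mmp8, the neutrophil collagenase, held neither motif in its window. Of the 21 other member genes with a window, 1 held the AP-1 motif (Adam19, in 1 of its windows) and 1 the TATA motif (Adamts1). The dinucleotide CG occurred 21 and 18 times in the windows of Timp2 and Timp3 and a median of 1 time in those of the block, against a median of 6 over all windows. The inhibitors were not alike in this, since the windows of Timp1 and Timp4 held it 6 and 2 times. Of the block, 2 of 9 genes were above the limit for dim probe sets, Mmp3 and Mmp8, against 27 of the 45 other member genes. A match is a description of the letters, and no binding was measured here. Levels of different genes cannot be compared on an array, and a link between these motifs and the intensities was not tested.

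Of the 83 probe sets, 48 lay above the 30th percentile of the mean log2 intensity over the 5 arrays and were tested, and they stand for 29 of the 54 genes. These are 9 of 18 Mmp genes, 4 of 4 Timp genes, 11 of 25 Adam genes and 5 of 7 Adamts genes. The 9 Mmp genes were Mmp2, Mmp3, Mmp8, Mmp9, Mmp11, Mmp14, Mmp16, Mmp23 and Mmp24. The 11 Adam genes were Adam1a, Adam1b, Adam4, Adam8, Adam9, Adam10, Adam15, Adam17, Adam19, Adam28 and Adam33, and the 5 Adamts genes were Adamts1, Adamts5, Adamts8, Adamts10 and Adamts15. With all 6 arrays 50 probe sets of 30 genes were above the limit, since Adam12 and Mmp7 came in and Mmp16 went out. With the percentile taken over the linear mean of the 5 arrays, 49 were above it, the addition being a probe set of Adam12. The nearest members on either side of the limit were Mmp16, at percentile 32.4, and Adam12, at 29.3.

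The genes below the limit included Mmp12, the macrophage elastase, whose probe set read between 11.4 and 53.8 on the 5 arrays. The other 8 Mmp genes below it were Mmp1a, Mmp1b, Mmp7, Mmp10, Mmp13, Mmp17, Mmp19 and Mmp20, and the Adamts genes were Adamts4 and Adamts7. The 14 Adam genes were Adam2, Adam3, Adam5, Adam7, Adam11, Adam12, Adam18, Adam21, Adam22, Adam23, Adam24, Adam25, Adam26a and Adam34. Several of these, among them Adam2 and Adam3, are known from sperm and the male reproductive tract, and all 5 germ cell markers examined were below the limit as well. Not all such genes were dim: Adam1b, likewise known from the testis and sperm, was above the limit on its probe set 1454317_at, at percentile 45.3. A dim probe set gives no proof that its transcript is missing.

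No member passed the adjusted threshold of 0.05 in limma with Benjamini-Hochberg adjustment over all tested probe sets, in either comparison. Among the 5 arrays 0.0442% of all 15838 tested probe sets passed, and with all 6 arrays 0% did. At an unadjusted p under 0.05 there were 3 member probe sets among the 5 arrays, 2 of Mmp2, higher with leptin, and 1 of Adam1b, lower. That is 6.25% of the 48, against 4.6% of all tested probe sets (2.61% higher and 1.98% lower), so the share is near the background. With the replicate number as a block the count was 5, through 2 probe sets of Timp3. For this and all other counts with the block no share of all tested probe sets is given here. They therefore cannot be set against a background. With all 6 arrays there were 2 of 50 tested member probe sets, 1 of Mmp2 and that of Adam1b, and 1 with the replicate block. The background was 0.385% (0.202% higher and 0.183% lower). The share of 2 in 50 lay above it, but rests on these 2 probe sets. The rule stated by the series (a change of 1.5-fold, p under 0.05 and 1.5-fold in at least 6 of 9 pairwise comparisons) was met with all 6 arrays by these same 2, where 0.107% of tested probe sets met it as higher and 0.0947% as lower. With 4 of 6 pairwise comparisons asked for among the 5 arrays, 1 Mmp2 probe set met it, against 0.259% of all tested probe sets as higher.

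**Figure D1:**
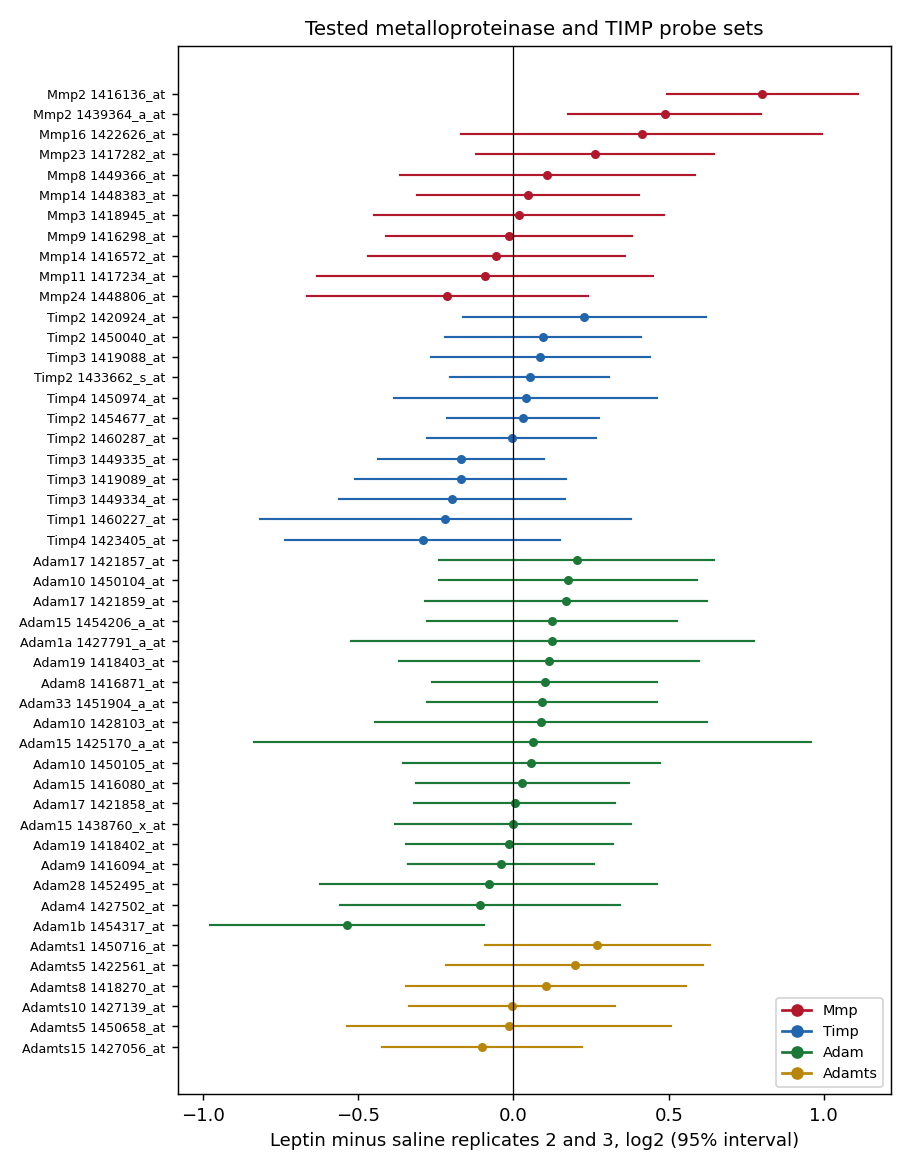
The difference between 3 leptin arrays and saline replicates 2 and 3 on the log2 scale (x axis) for each of the 48 tested probe sets (y axis), coloured by family, with the 95% interval from limma as a line. The intervals of both Mmp2 probe sets lie above 0 and that of Adam1b below 0, and the other 45 include 0.

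Mmp2, the gelatinase that cleaves denatured collagens and basement membrane collagen, had the highest difference among the members. On its probe set 1416136_at the 3 leptin arrays read 1183.6, 1074.5 and 1276.6, and saline replicates 2 and 3 read 661.9 and 667.7. The ratio of the group means was 1.77, with 1178 ± 101 (SD, n = 3) for leptin and 664.8 ± 4.10 (SD, n = 2) for saline. Every leptin value thus lay above both saline values, and the value of 331.0 on saline replicate 1 lay lower still. The log2 difference was 0.80 ± 0.14 (SE), with a 95% interval of 0.49 to 1.11 and a limma adjusted p of 0.137. On 1439364_a_at, the second, the values were 1632.1, 1321.6 and 1408.6 with leptin, 1062.2 and 993.4 with saline, and 89.0 on saline replicate 1. Here too the groups did not overlap, and the difference was 0.49 ± 0.14 (limma adjusted p = 0.834). With all 6 arrays the differences were 1.12 ± 0.34 and 1.57 ± 0.89, each at a limma adjusted p of 0.715. Neither probe set passed the adjusted threshold in any alternative run, where the adjusted p of 1416136_at ran from 0.110 to 0.581 among the 5 arrays and from 0.0759 to 0.885 among all 6.

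Fibroblasts are a main source of Mmp2. Of 8 fibroblast markers, all above the limit for dim probe sets and none at 0, 7 had a difference above 0, against 50.3% of all tested probe sets, and 4 were higher at an unadjusted p under 0.05, against 2.61%, while 0 passed the adjusted threshold in limma. These 4 were Col1a1 (0.60), Col1a2 (0.53), Col3a1 (0.71) and Lum (0.68), genes of fibrillar collagens and of a collagen-binding proteoglycan. The groups overlapped for the other 4, Fn1, Dcn, Pdgfra and Tcf21, at 0.20, 0.10, 0.09 and -0.05. The summed intensity of the 8 ran from 29891.8 to 30757.5 with leptin and was 25701.2 and 22279.8 on saline replicates 2 and 3. Smooth muscle markers were above 0 in 6 of 6, at a median of 0.25, with sums of 9143.8 to 11131.0 against 8201.3 and 8505.3, and 2 were at an unadjusted p under 0.05 (4 with the replicate block). Erythroid markers differed the other way: both tested of 4 were lower, with sums of 3105.5 to 4199.3 against 8943.9 and 7665.7. Alas2, the first enzyme of heme synthesis in red cell precursors, was lower with leptin among the 5 arrays. The 95% interval of its log2 difference was -1.52 to -0.87 (limma adjusted p = 0.0496, and 0.0942 with the replicate block). Slc4a1, the red cell anion exchanger, was at -0.70, at an unadjusted p under 0.05. On saline replicate 1 Alas2 read 42.2, against 2846.1 to 3874.2 with leptin. With all 6 arrays its difference was 1.12 (limma adjusted p = 0.765), the other direction, and that of Slc4a1 was -0.16. Hba-a1 was below the limit, and no other cell type marker passed the adjusted threshold. Higher values were not particular to fibroblast and smooth muscle markers. Endothelial markers were above 0 in 6 of 7, and adipocyte and B cell markers in 3 of 3 each. Alveolar type II markers were above 0 in 2 of 6 and club cell markers in 0 of 4. The part of these cell types in the Mmp2 result was not tested.

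**Figure D2:**
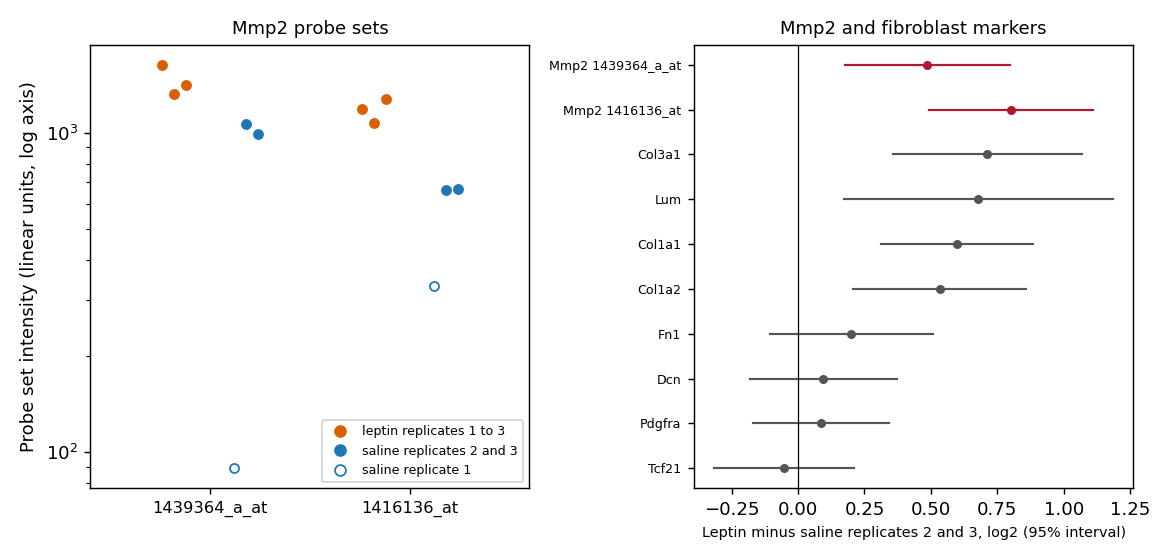
Left, intensity of the Mmp2 probe sets on each array (log axis), with saline replicate 1 as an open circle; right, log2 differences between leptin and saline replicates 2 and 3 with 95% intervals for Mmp2 and the 8 fibroblast markers. The leptin points of both Mmp2 probe sets lie above all saline points, and the intervals of Col3a1, Lum, Col1a1 and Col1a2 lie above 0 while those of Fn1, Dcn, Pdgfra and Tcf21 include it.

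The membrane-bound and other secreted Mmp genes showed smaller differences. Mmp14, the membrane enzyme that activates proMmp2 on the cell surface, read 682.4, 702.5 and 617.1 with leptin and 739.5 and 561.5 with saline, and 563.3 on saline replicate 1. The groups overlapped, and the differences of its 2 probe sets were 0.05 ± 0.16 and -0.06 ± 0.19, with a 95% interval of -0.31 to 0.40 for the first. Mmp23, a membrane enzyme that is released by cleavage, read 529.5, 418.4 and 421.2 with leptin, 412.7 and 339.4 with saline and 326.0 on saline replicate 1. Its groups did not overlap, yet its difference of 0.26 ± 0.17 had an interval of -0.12 to 0.65 and ran from 0.13 to 0.40 when 1 array was left out. Mmp3, the stromelysin whose promoter is printed above, read 325.7, 262.7 and 348.1 with leptin and 246.1 and 379.1 with saline, and 209.5 on saline replicate 1. Its leptin values lay between both saline values, at a difference of 0.02 ± 0.21.

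The remaining tested Mmp genes ranged from -0.21 for Mmp24 to 0.41 for Mmp16, both membrane-type enzymes. Mmp9, the gelatinase stored in neutrophil granules, was at -0.01 ± 0.18, and Mmp8, the neutrophil collagenase, at 0.11 ± 0.22. Mmp11, a stromelysin of stromal cells, was at -0.09 ± 0.24. All of these intervals include 0. Of 7 neutrophil markers with a probe set, 6 were tested and all 6 had a difference above 0, against 50.3% of all tested probe sets. Of these, 1 was higher at an unadjusted p under 0.05 (Ngp, 1.13, and 3 with the replicate block), against 2.61%, and 0 passed the limma threshold. With all 6 arrays Ngp, S100a9 and Csf3r were at 0.39, 0.35 and 0.19, and S100a8 and Mpo at -0.06 and -0.43. The summed intensity of the 6 markers overlapped between groups among the 5 arrays, at 2361.9 to 5474.3 with leptin and 1908.5 and 4696.0 with saline. Their part in the values of Mmp8 and Mmp9 was not tested.

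All 4 inhibitors were tested, with 12 of their 13 probe sets, and the differences ran from -0.29 to 0.23. Timp2, which inhibits Mmp2 and also takes part in its activation by Mmp14, read 5324.6, 6090.4 and 5361.1 with leptin and 5615.0 and 5159.9 with saline on its probe set 1433662_s_at. The difference was 0.05 ± 0.12, with a 95% interval of -0.20 to 0.31. Its 4 other tested probe sets were between -0.0061 and 0.23, so none of the 5 gave a difference whose interval leaves out 0. Timp3, which binds to the matrix, read 8324.8, 9060.7 and 7489.2 with leptin and 8610.9 and 10026.6 with saline on probe set 1449335_at, a difference of -0.17 ± 0.12. Of its 4 probe sets 3 were below 0, at -0.17, -0.17 and -0.20, and 1 above, at 0.09, and in each the interval includes 0. With the replicate block, 1449334_at and 1419089_at were at -0.36 and -0.31 with unadjusted p-values of 0.0204 and 0.0492 (limma adjusted p = 0.624 and 0.690).

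Timp4, the inhibitor of more restricted tissue range, read 305.6, 241.4 and 265.9 with leptin and 227.9 and 300.4 with saline, at 0.04 ± 0.19. On its other probe set the values were 173.8, 161.7 and 142.4 with leptin, 198.4 and 200.6 with saline, so that its groups did not overlap, at -0.29 ± 0.20. Timp1, a secreted inhibitor induced in inflammation, read 246.9, 132.2 and 280.2 with leptin and 243.5 and 253.5 with saline. Its difference of -0.22 ± 0.27 was carried by leptin replicate 2, and without that array it was 0.08. On saline replicate 1 the Timp4 and Timp1 probe sets read above all other arrays (474.9, 489.8 and 757.6), and all 9 tested probe sets of Timp2 and Timp3 read below all others.

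**Figure D3:**
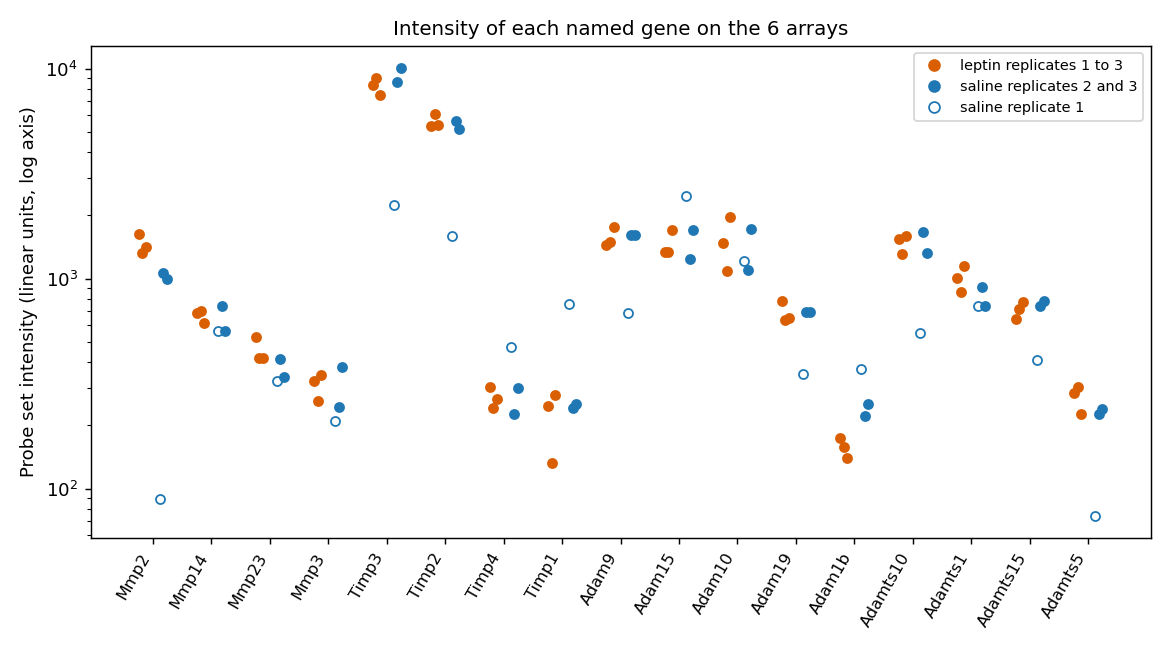
Probe set intensity (log axis) on each of the 6 arrays for the 17 genes whose values are given, 1 tested probe set per gene (the brightest on average), grouped as Mmp, Timp, Adam and Adamts. Among the 5 arrays without saline replicate 1 (open circles) the groups do not overlap for Mmp2, Mmp23 and Adam1b, and they overlap for the other 14; levels of different genes cannot be compared on an array.

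The sheddases Adam10 and Adam17 did not separate the groups. Adam10, which cleaves Notch receptors and cadherins, read 1470.4, 1085.9 and 1955.5 with leptin and 1096.1 and 1719.0 with saline, and 1219.4 on saline replicate 1. Its spread within groups was wide, and its 3 probe sets were at 0.09, 0.06 and 0.18. Adam17, which releases tumour necrosis factor and several ligands of the epidermal growth factor receptor, had 3 probe sets at 0.0038, 0.17 and 0.20. All 6 intervals of these probe sets include 0, and the widest reaches from -0.45 to 0.62 (Adam10).

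Adam9 read 1448.6, 1494.9 and 1759.3 with leptin and 1604.9 and 1609.0 with saline, with 685.3 on saline replicate 1, at -0.04 ± 0.14. Adam15, an ADAM with an integrin-binding disintegrin domain, read 1336.2, 1339.8 and 1699.8 with leptin and 1234.0 and 1704.0 with saline. Its 4 tested probe sets were at -0.0011, 0.13, 0.03 and 0.06. The first of them, an _x_at set that by its design may also bind other transcripts, read 2460.5 on saline replicate 1, above the other arrays, whereas the second read 161.9 there, below them. Adam19 read 783.9, 638.6 and 652.2 with leptin and 696.5 and 693.4 with saline, with 352.2 on saline replicate 1, at -0.01 ± 0.15.

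Adam1b, a gene known from the testis and sperm, had the lowest difference of the members. It read 173.9, 158.6 and 139.8 with leptin and 222.1 and 253.4 with saline, and 370.4 on saline replicate 1. All leptin values lay below all saline values, and the difference was -0.54 ± 0.20 (limma adjusted p = 1.00). The other Adam1b probe set was below the limit, with 115.4, 98.5 and 36.7 under leptin against 91.4 and 26.4 under saline, so it did not show this order. Adam1a, its close relative, likewise on chromosome 5, was at 0.13 ± 0.29. Adam8, found on leukocytes, Adam33, known from airway smooth muscle and fibroblasts, Adam28 and Adam4 were at 0.10, 0.09, -0.08 and -0.11, all with intervals that include 0.

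The Adamts genes differed by -0.10 to 0.27. Adamts1, which cleaves versican and aggrecan, read 1001.5, 860.8 and 1148.8 with leptin and 908.5 and 744.7 with saline, with 741.8 on saline replicate 1. Only leptin replicate 2 lay within the range of saline, and the difference was 0.27 ± 0.16 with an interval of -0.09 to 0.63, and it ran from 0.13 to 0.41 when 1 array was left out. Adamts10, which binds fibrillin microfibrils, read 1540.2, 1312.7 and 1588.1 with leptin and 1660.8 and 1320.0 with saline, and 551.8 on saline replicate 1. Its difference was -0.0052 ± 0.15 among the 5 arrays and 0.46 ± 0.44 with all 6. Adamts15 read 643.2, 713.4 and 775.9 with leptin, 744.0 and 781.4 with saline and 409.3 on saline replicate 1, at -0.10 ± 0.15.

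Adamts5, an aggrecanase, read 285.8, 306.3 and 227.5 with leptin and 227.6 and 239.7 with saline on its probe set 1422561_at, at 0.20 ± 0.19. Its other probe set was at -0.01 ± 0.24. On saline replicate 1 the first read 74.5, below the other arrays, and the second 708.6, above them. Adamts8 was at 0.10 ± 0.20.

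As a list, the 48 tested probe sets had a median difference of 0.04 among the 5 arrays, against 0.0012 for all tested probe sets. Of them 29 (60.4%) were above 0, against 50.3% of all tested probe sets, and 19 below it, against 49.7%. Of the 48, 41 (85.4%) lay within 0.25 of 0, against 79.4%. The family medians were 0.05 for Mmp, 0.01 for Timp, 0.06 for Adam and 0.05 for Adamts. The median over all 83 without the limit was 0.05, against 0.0061 over all probe sets. Groups did not overlap for 5 probe sets higher with leptin (10.4%, against a background of 9.92%), which were both of Mmp2 and those of Mmp16, Mmp23 and Adam8. For 2 they did not overlap with lower values (4.17%, against 9.66%), those of Adam1b and Timp4. Mmp16 and Adam8 are named here after their values were seen.

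With saline replicate 1 included, the values of most members followed that array. It read outside the range of the other 5 for most of the 83 probe sets, above it for 46 and below it for 26, and within it for 11. Of the 35 probe sets below the limit, 32 (91.4%) read above the range and 0 below it, where 84.3% of all dim probe sets read above. Of the 48 tested, 14 (29.2%) read above and 26 (54.2%) below, where the shares of all tested probe sets were 41.9% and 47%. Mmp7, matrilysin, read 1370.9 on it against 26.2 to 143.1 elsewhere, and Mmp8 read 1303.6 against 146.8 to 198.2. Mmp11 read 29.1 against 157.8 to 276.7. With all 6 arrays the member differences accordingly ran from -1.38 (Mmp7) to 1.57 (Mmp2) at a median of 0.17, against 0.02 for all tested probe sets. Of these 50 probe sets 31 were above 0, where 51.3% of all tested ones were, and 19 below it, where 48.7% were.

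**Figure D4:**
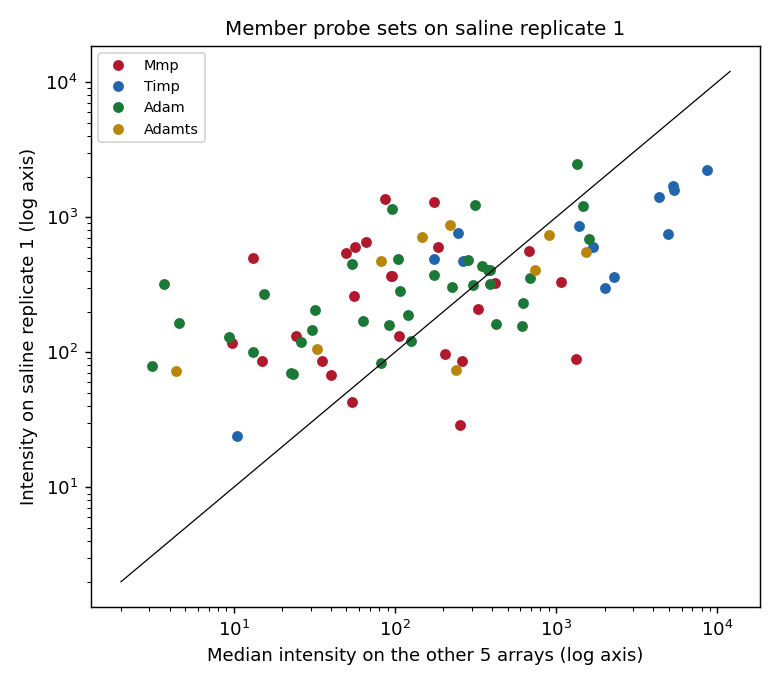
Intensity on saline replicate 1 (y axis) against the median of the other 5 arrays (x axis) for the 83 member probe sets, both on log axes, coloured by family; the line marks equal values. Of the 35 dim members 32 read higher on saline replicate 1 than on every other array, and the 9 tested probe sets of Timp2 and Timp3 lie below it.

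Related genes were read from lists of protease systems around these families, and none of their members passed the limma threshold in either comparison. In the plasminogen and serpin list 9 of 15 genes were tested, 5 with a difference above 0 and 4 below, and 1 was at an unadjusted p under 0.05. For this and the following lists the shares of all tested probe sets were 50.3% above 0 and 4.6% at an unadjusted p under 0.05. The gene was Serpinh1, which despite its serpin name is a chaperone of collagen and no known protease inhibitor: it read 2993.6, 2337.2 and 3160.2 with leptin and 1792.8 and 1910.3 with saline, a difference of 0.60 ± 0.15 (limma adjusted p = 0.540). Serpinf1 was at 0.28 ± 0.14. Of 25 activators, inhibitors and cofactors 21 were tested, 14 above 0 and 7 below, with 0 at an unadjusted p under 0.05. Pcsk7, a proprotein convertase, was at -0.28 ± 0.18 and Sparc, a matricellular protein, at 0.16 ± 0.10.

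Of 17 elastases, cathepsins and their inhibitors 13 were tested, 6 above 0 and 7 below. Slpi, an inhibitor of neutrophil elastase secreted by airway epithelium, read 1036.5, 1577.1 and 1340.3 with leptin and 1685.0 and 1711.4 with saline, at -0.38 ± 0.17 (limma adjusted p = 1.00), and was the 1 gene at an unadjusted p under 0.05. Elane, Ctsg and Prtn3, the neutrophil serine proteases, were below the limit. Ctsz, a cathepsin, was at 0.24 ± 0.14.

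Of 31 proteins shed by ADAM proteases 26 were tested, 13 above 0 and 13 below. Fcer2a, the low-affinity IgE receptor of B cells and a substrate of Adam10, was the 1 gene at an unadjusted p under 0.05, with 235.8, 157.1 and 176.8 with leptin and 112.0 and 120.3 with saline, at 0.60 ± 0.23 (limma adjusted p = 1.00). All 3 tested B cell markers were above 0 as well, with summed intensities of 804.8 to 1099.4 with leptin and 838.4 and 699.7 with saline, and their part in this value was not tested. Dll1, a Notch ligand, was at 0.27 ± 0.16. Of 20 substrates and enzymes of matrix processing 16 were tested, 11 above 0 and 5 below, led by Tnc (0.49 ± 0.23) and Fbln1 (0.31 ± 0.14), both matrix glycoproteins. Of 20 other zinc metalloproteases and ADAMTS-like genes 10 were tested, 4 above 0 and 6 below, with Mme, neprilysin, at 0.18 ± 0.14 and Adamtsl4 at -0.22 ± 0.19. In the last 2 lists 0 genes were at an unadjusted p under 0.05. With the replicate block Slpi and Fcer2a were no longer under it, while Pcolce, an enhancer of procollagen processing, and Kitl, a shed growth factor, came under it (differences of 0.37 and 0.28 on the log2 scale). The medians of the 6 lists lay between -0.02 and 0.12, against 0.0012 for all tested probe sets.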

How the data were processed

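Total RNA was amplified in successive cDNA and T7 transcription steps before hybridisation, per the labels' protocols. The deposited values are linear intensity values, 1 per probe set and array, and the authors had scaled each array to a common mean: without the lowest and highest 2% of probe sets it lay between 499.6 and 500.0. The summarisation software is not given in the sources used here. Of 22690 probe sets, 64 controls were left out. Symbols come from the annotation of the array platform, and all 83 member probe sets matched a RefSeq gene (GRCm38.p6) by Entrez ID, with 0 symbols changed. No build is named for the arrays.

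To each intensity 22.0, their pooled 10th percentile, was added before taking log2, so differences of dim probe sets are understated. The dimmest 30% by mean log2 value were left out, and 15838 probe sets were fitted with limma 3.58.1 in R 4.3.3 (lmFit, eBayes with trend, two-sided, leptin minus saline). An error after ± is the SE unless marked SD. For the series' rule a 2-sample test with pooled variance stood in for the unnamed one. The fit was tested on simulated data.

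Values on every array were given for genes at an unadjusted p under 0.05 among the 5 arrays, the 4 genes of highest mean in each family, and, of the genes whose tested probe sets differed in sign, the 3 of highest mean. In each related list the 2 genes with the smallest p were given. The members, lists and tests were chosen with earlier results of these data known. Deviations from group means correlated weakly between same-numbered arrays (r = 0.144, 0.108 and 0.103, across probe sets), against -0.147 to 0.0491 for unlike numbers. Deviations within a group are tied by their mean, and those of saline include saline replicate 1. These correlations are therefore not independent and do not settle whether the numbers pair the samples. The fits led with leave the numbers out, and the replicate block is given as an alternative. Under the block, leptin replicate 1 has no partner without saline replicate 1. The p-values measure the spread between these samples.

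Other settings tried were pseudocounts of 1 and 79.9 (the 25th percentile), a common median, quantile normalization, no filter and a filter at 50%, the replicate block, no trend, array weights, averaged probe sets per gene, a threshold of 0.10, each array left out, and, chosen after seeing the data, a filter on the linear mean.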

Additional observations from a re-analysis of the deposited data

How the results depend on the processing

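The count of members past the adjusted threshold was 0 in both comparisons under every alternative run, and also at a threshold of 0.10 with the other settings kept. That threshold was not combined with other alternatives; with array weights and all 6 arrays Mmp2 was at a limma adjusted p of 0.0759. Among the 5 arrays the median difference of the members, 0.04, ran from 0.0046 (saline replicate 3 left out) to 0.07 (saline replicate 2 left out), each within 0.0695, the SD of the members' median between replicates. Of 18 probe sets given by array, 10 had a difference whose sign turned with the array left out, among them Adam10 (-0.23 to 0.41), Mmp3 (-0.27 to 0.31) and Mmp14 (-0.15 to 0.24). With all 6 arrays the median of 0.17 was 0.31 with a common median, which also shifted the median of all tested probe sets from 0.02 to 0.17, and -0.10 with no filter, where all 83 members entered. It ran from 0.04 to 0.25 when 1 array was left out, and was 0.04 without saline replicate 1. In that comparison Adamts10 turned from 0.46 to -0.044 with array weights and to -0.0052 without saline replicate 1 (range 0.77 at most when 1 array was left out), and Adamts5 from 0.67 to -0.012 when its probe sets were averaged. For Adamts10 and Adamts5 a direction was counted as turned only where the difference exceeded its SE. The 10 turned signs among the 5 arrays were counted without that condition. Among the 5 arrays the 3 members at an unadjusted p under 0.05 became 5 with the replicate block and 5 without leptin replicate 1. Their number was 2 without leptin replicate 3 and with a filter at 50%. With all 6 arrays the 2 such members ran from 0 without leptin replicate 3 to 3 with array weights or without saline replicate 1, and were 1 under most other settings, among them the replicate block and each other array left out. For these counts no share of all tested probe sets is given, except for the run without saline replicate 1. The others cannot be set against a background. The block changed no call of a member past the adjusted threshold, whereas the marker Alas2 was no longer past it with the block. The number of arrays, 3 against 2 or 3, limits what could be detected.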
